A study of Mus musculus with 17 samples.

Results

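Type I interferon stimulated genes are genes that cells switch on when the interferons alpha and beta bind their common receptor. The members were chosen as 45 listed gene symbols, namely Ifnb1, which encodes interferon beta, and 44 genes known to be induced by it, and all 45 were found among the 55450 genes of the count table through Gencode vM21. Counts were obtained by RNA-Seq from 17 peritoneal tumors grown from AB12, a murine mesothelioma line, after AB12 cells were injected into the peritoneum of 8-week-old female BALB/c mice. The comparisons ask how the genes differ between the early (d6), intermediate (d10) and advanced (d14) phases of tumor growth and under anti CTLA-4, an antibody against the T cell checkpoint receptor CTLA-4. The groups were 3 untreated tumors at d6, 5 untreated tumors at d10, 3 untreated tumors at d14 and, from mice given anti CTLA-4, 3 tumors at d10 and 3 at d14. All groups carried the same AB12 tumor in the same strain. The study used at least 3 independent mice in each group, and whether the 5 untreated d10 tumors came from 5 mice was not given. The antibody was clone 9D9, injected into the peritoneum at 200 µg each time. The treated d14 mice of the study were injected on d6 and d10, whereas the labels describe a course of 2 injections a week, and the days of injection of the treated d10 mice were not given in the sources used here. AB12 is 1 transplanted line, and each sample was a whole tumor with its stroma and infiltrating leukocytes.

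Type I interferons are made after nucleic acid sensors such as RIG-I, MDA5 and cGAS bind foreign or misplaced RNA or DNA. They signal through the receptor chains IFNAR1 and IFNAR2 and the kinases JAK1 and TYK2 to a complex with STAT2 and IRF9, which binds the interferon-stimulated response element (ISRE) in the promoters of the target genes. The products restrict viral replication, raise sensing further and, as with USP18, end the signal at the receptor, and in tumors the pathway is known for its part in priming T cell responses.

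The promoters of the members are shown because they carry the sequence through which the group is known to respond. RefSeq promoter windows on GRCm38.p6, which run from 250 bases before to 50 bases after a start, were at hand for 35 of the 45 members. The ISRE was searched as GAAA, any 2 bases and GAAA on either strand, so that a match on the other strand reads TTTC, any 2 bases and TTTC, and matches may overlap. It was present in 18 of the 35 members with a window (51.4%), against 1079 of 27025 genes with a window (3.99%). The share was 40.0% in a list of 10 interferon gamma genes with a window and 36.6% in a list of 41 other genes of the type I pathway. A second motif, the gamma-activated site searched as TTC, any 3 bases and GAA, was present in 14.3% of the members and 9.55% of all genes. In 16 members an ISRE lay upstream of the start, the nearest at a median of -70.5 bases (range -222 to -12), and 8 members held at least 2. These stretches of 8 members are printed 5′ to 3′ on the strand of the gene, with each ISRE in capitals. They were taken from 6 members with large falls from d6 to d10 and from 2 with small ones, Bst2 and Stat2.
Isg15 (chr4:156200850-156200921, minus strand): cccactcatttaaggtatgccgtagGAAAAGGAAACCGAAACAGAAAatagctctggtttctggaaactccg
Ifit3b (chr19:34607744-34607837, plus strand): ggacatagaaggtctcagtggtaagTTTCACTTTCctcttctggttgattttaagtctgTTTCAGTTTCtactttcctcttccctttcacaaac
Ifit1 (chr19:34640760-34640838, plus strand): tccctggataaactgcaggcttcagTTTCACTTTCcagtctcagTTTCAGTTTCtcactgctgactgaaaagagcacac
Rsad2 (chr12:26456538-26456597, minus strand): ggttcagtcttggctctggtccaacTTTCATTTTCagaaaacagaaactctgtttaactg
Oas1g (chr5:120887614-120887656, minus strand): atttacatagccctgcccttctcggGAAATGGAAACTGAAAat
Ddx60 (chr8:61928009-61928086, plus strand): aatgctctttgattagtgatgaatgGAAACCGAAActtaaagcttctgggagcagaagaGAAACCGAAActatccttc
Bst2 (chr8:71537562-71537627, minus strand): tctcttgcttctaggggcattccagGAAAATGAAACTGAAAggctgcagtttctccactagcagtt
Stat2 (chr10:128270251-128270310, plus strand): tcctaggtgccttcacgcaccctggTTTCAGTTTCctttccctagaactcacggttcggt
In Isg15, Oas1g and Bst2 the matches overlap and run together into 1 longer repeat, whereas Ifit3b, Ifit1 and Ddx60 hold separate copies. The Ifit3 promoter holds the same stretch as that of Ifit3b at chr19:34583348-34583441. A match is a description of the letters and does not show that a factor binds there.

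Some members share sequence or position with other genes, which bears on their counts. Of the 75-base words of Oas1a transcripts 47.6% also occur in Oas1g, and of those of Ifit3 41.1% also occur in Ifit3b, with 26.8% of Phf11b words found in Phf11c and other genes. Counts of these genes are therefore uncertain and may be too low, since uniquely mapped reads alone were counted and reads of shared words can be lost. Exons of Irf7, Usp18, Dhx58, Oasl1, Dtx3l, Ifi35 and Slfn5 overlap a gene on the other strand, and whether the counting used strand was not given in the sources used here. Exons of Irf9, Herc6, Parp14 and Rtp4 overlap a gene on the same strand, and counts of all these overlapping genes are likewise uncertain. Mx2 is annotated as a polymorphic pseudogene.

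Total counts were between 46371577 and 96759833 per library. No pair of replicates was alike within sampling noise. The libraries were clustered on 784 pseudogene and small RNA genes, and the number of sets was a choice. When 2 sets were made, the d6 tumors with untreated d10 replicates 1 to 3 stood apart from all other libraries. When 3 sets were made, these others were parted into untreated d10 replicates 4 and 5 with the treated d10 tumors, and all d14 tumors. The study used 2 sequencing instruments with reads of 75 or 100 bases, and which library was read on which instrument was not given. When 4 sets were made, the treated d14 tumors formed a set apart from the untreated d14 tumors, so that set and treatment cannot be told apart at d14. Comparisons of 2 groups that rest on the untreated d10 tumors are also given for replicates 1 to 3, which share a set with the d6 tumors, and for replicates 4 and 5. The interaction was not computed on these subsets. Markers of mesothelioma and mesothelium (Msln, Wt1, Upk3b, Lrrn4, Krt8, Krt18 and Krt19) were present in every group, their summed level being 2564 to 3063 CPM (counts scaled to a common depth) at d6 and 1878 to 2096 CPM in treated d14 tumors.

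As one group, the members stood far higher in early-phase tumors than in all later groups. Their summed level was 15520 ± 3402 CPM (SD, n = 3) in d6 tumors, 4410 ± 640 CPM (n = 5) in untreated d10 tumors and 4969 ± 374 CPM (n = 3) in untreated d14 tumors. In the anti CTLA-4 groups it was 4390 ± 381 CPM at d10 and 3583 ± 138 CPM at d14 (n = 3 each). The lowest d6 tumor, at 12180 CPM, had more than the highest later tumor, at 5407 CPM. The scaling used TMM, the trimmed mean of M values, over all 17 libraries.

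**Figure D1:**
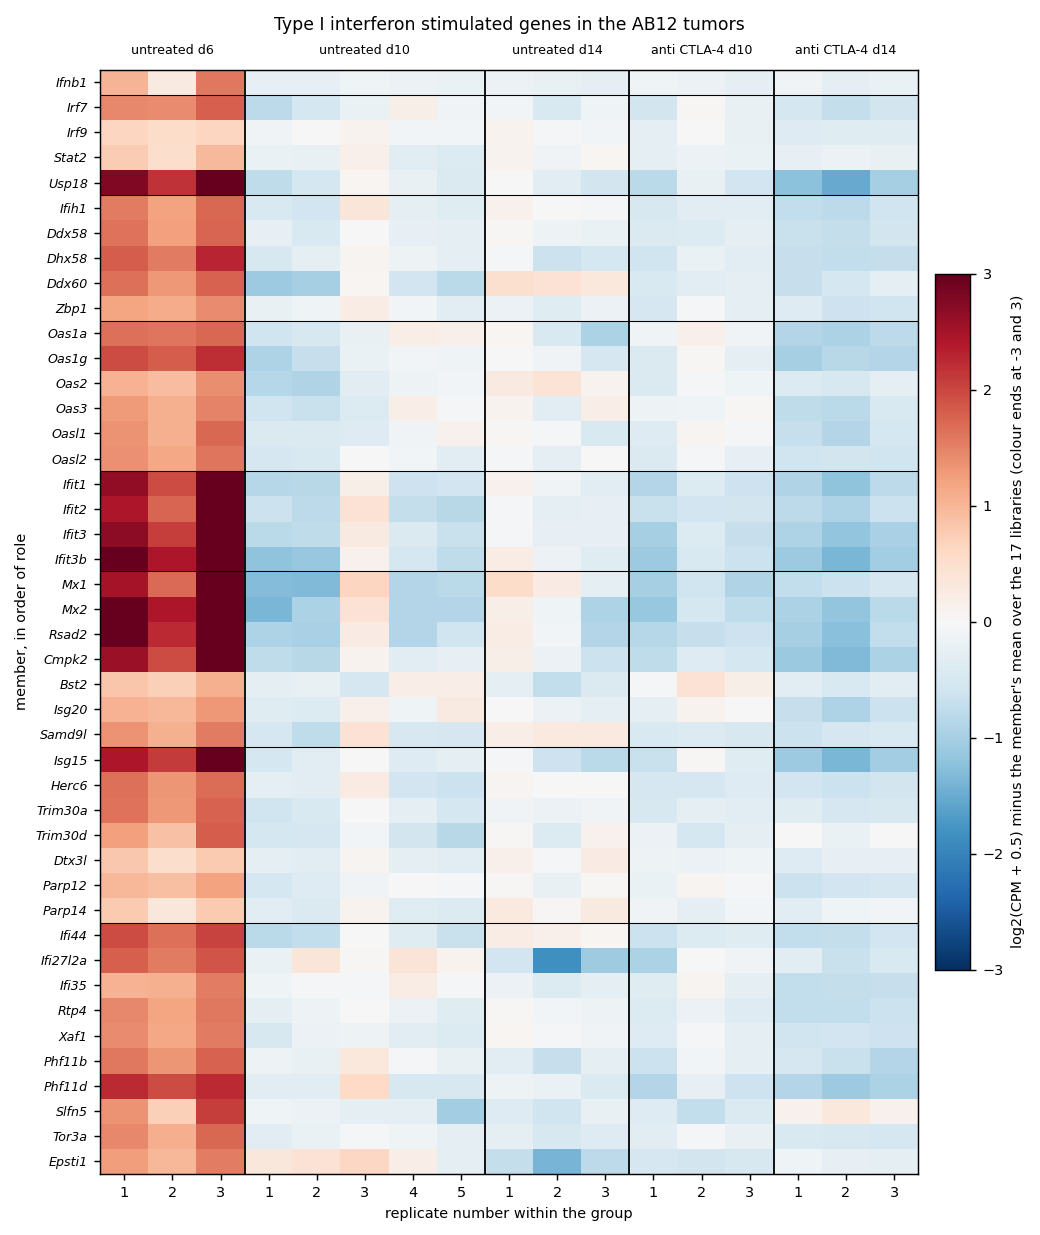
Level of 44 members in the 17 libraries, as log2(CPM + 0.5) minus the member's own mean, with columns grouped by condition and rows by role; Slfn8, at 0 in every library, is left out. The 3 d6 columns are red for every member, replicate 3 the deepest for most. For most but not all members untreated d10 replicate 3 is paler blue or red where its neighbours are blue.

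The d6 tumors differed among themselves in a way that most members shared. Of the 43 members with enough counts to be ranked, 41 were highest in d6 replicate 3 and 42 were lowest in d6 replicate 2. In untreated d10 tumors 31 of the 43 were highest in replicate 3, in untreated d14 tumors 35 were highest in replicate 1, and in treated d14 tumors 28 were highest in replicate 3. The members of 1 tumor thus moved together, and they do not count as separate measurements of it.

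On TPM, a scale per transcript length, the order of the members also differed between phases. At d6 the most abundant member was Isg15, a ubiquitin-like protein joined to other proteins, at 1750 ± 605 TPM (SD, n = 3), which placed it at rank 61 among all genes. Bst2 (tetherin, which holds budding virions at the membrane) followed at 1523 ± 229 TPM, less than the spread of Isg15 below it. Rsad2 (viperin, an antiviral radical SAM enzyme) had 811 ± 404 TPM and Irf7 (the transcription factor that amplifies interferon genes) 689 ± 121 TPM, and they too did not differ beyond their spread. In untreated d10 tumors Bst2 led at 782 ± 151 TPM, well above Isg15 at 249 ± 46.1 TPM, Zbp1 at 241 ± 46.4 TPM and Irf7 at 199 ± 48.2 TPM (n = 5), whose spreads overlap. Rsad2 had dropped from the third to the 23rd place among the members. Trim30d was the lowest of the members other than Ifnb1 and Slfn8 at d6, at 24.4 ± 8.93 TPM.

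From d6 to d10 the whole group fell. Of the 44 members tested, 38 were called lower and 0 higher by edgeR's quasi-likelihood test at a Benjamini-Hochberg adjusted p below 0.05 and a fold above 2, where 2.66% of all genes tested were called lower and 4.79% higher. DESeq2 also gave 38 and 0, and at an unadjusted p below 0.05 there were 44 lower and 0 higher. The share of all genes at an unadjusted p below 0.05 was not computed, here or in the comparisons below. With the adjusted p alone all 44 passed (7.03% of all genes), and for all 44 every d6 tumor exceeded every untreated d10 tumor (14.4% of all genes). The median log2 fold change of the members was -1.78, a 3.44-fold lower level, beside a median of 0.03 over all genes. It ranged from -4.42 for Ifnb1 to -0.61 for Irf9. Against untreated d10 replicates 1 to 3 alone 39 members were called lower, and against replicates 4 and 5 alone 41 were. In whole tumors, fewer cells of a type and less RNA per cell cannot be told apart.

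**Figure D2:**
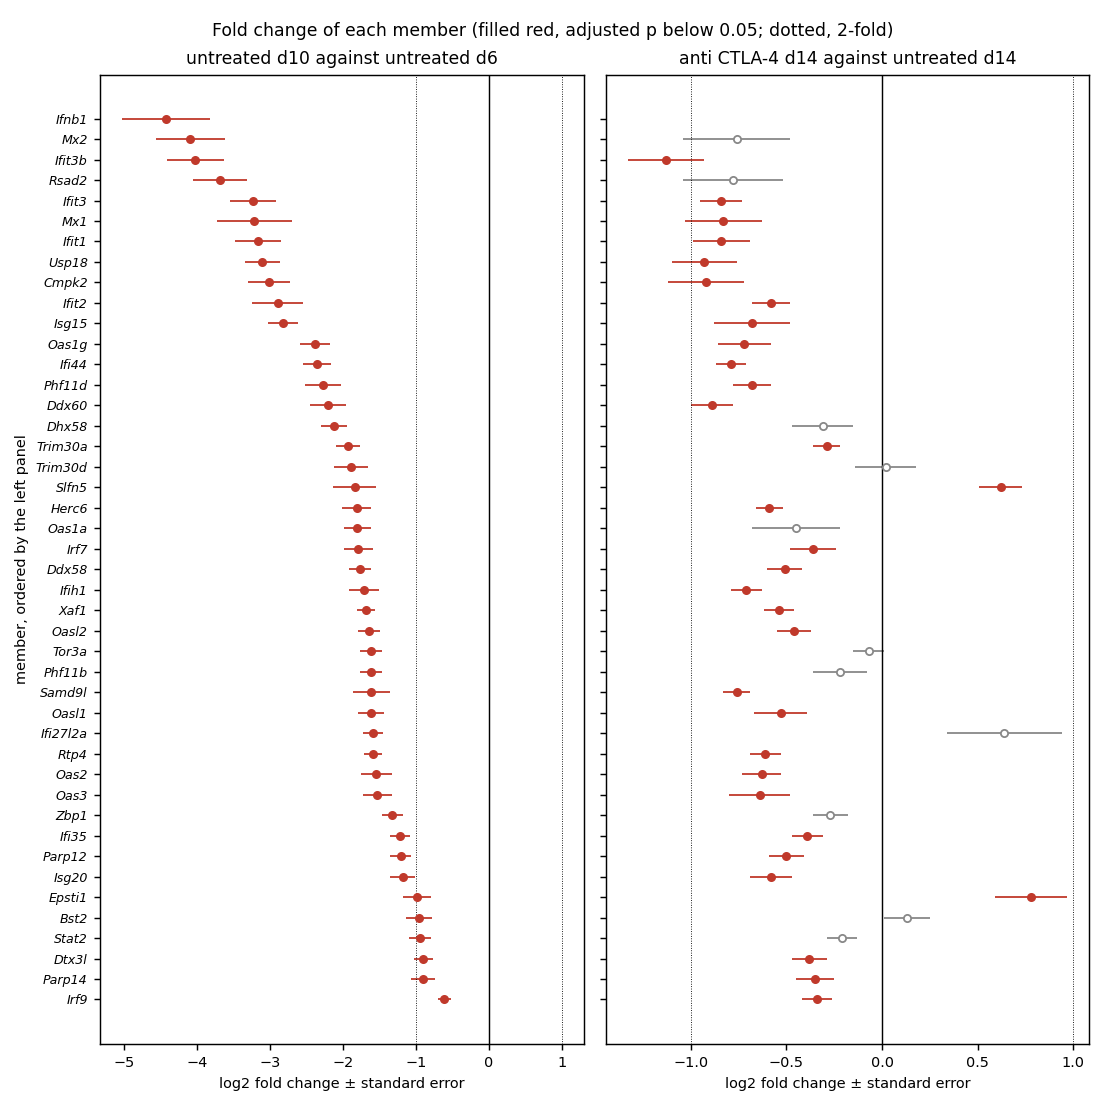
Log2 fold change of each tested member with its standard error, from d6 to d10 in untreated tumors (left) and for anti CTLA-4 against untreated tumors at d14 (right, on a narrower scale). All 44 points lie left of 0 in the left panel, and 38 of 43 in the right panel, where Slfn5 and Epsti1 are the filled points to the right.

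The ligand Ifnb1 was detected mainly at d6. Its raw counts were 33, 12 and 66 in the d6 tumors, 1, 1, 3, 4 and 2 in the untreated d10 tumors and 3, 2 and 0 in the untreated d14 tumors. The treated tumors had 5, 3 and 0 counts at d10 and 7, 1 and 3 at d14. Every d6 tumor was thus above every later tumor, though all later values are near the limit of counting. Scaled for depth, the summed d6 level was 22.9-fold that of untreated d10 tumors (95% exact interval 12.3 to 47.2, from counting error only) and 38.7-fold that of untreated d14 tumors (16.1 to 122). The fitted log2 fold change to d10 was -4.42 ± 0.6 (standard error, adjusted p = 0.0014).

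Of 17 further type I interferon genes listed, 9 had no count in any library and 6 never exceeded 3. The other two were Ifna4, with 4, 2 and 18 counts at d6 and at most 1 in any later tumor, and Ifna2, with 5, 0 and 6 counts at d6 and at most 1 later. Like Ifnb1 and most members, Ifna4 was highest in d6 replicate 3, whereas Ifna2 had too few counts to rank replicates 1 and 3.

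Among the genes of signal transduction and feedback, Usp18 and Irf9 mark the ends of the range. Usp18, the protease that removes ISG15 and blocks the receptor, stood at 381, 249 and 498 CPM in the d6 tumors and at 32.1, 37.9, 57.2, 47.1 and 40.8 CPM in the untreated d10 tumors. The untreated d14 tumors had between 37.2 and 54.2 CPM and the treated d14 tumors 23.2, 19.1 and 27.4 CPM. The d6 tumors lay far above the rest, and the treated d14 tumors were the only group wholly below all others. Its log2 fold change from d6 to d10 was -3.1 ± 0.24 (adjusted p = 9.4e-05). Irf9, the DNA-binding partner of STAT2, had 175, 165 and 175 CPM at d6 against 104, 114, 121, 107 and 107 CPM in untreated d10 tumors, groups that do not overlap in spite of a small change of -0.61 ± 0.09 (adjusted p = 0.0022). Stat2 fell by 0.94 and Irf7 by 1.79 on the log2 scale.

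All 5 nucleic acid sensors fell, by 1.32 to 2.2 on the log2 scale. Ddx60, a helicase linked to RIG-I signaling, had 175, 137 and 191 CPM at d6 and 25.6, 27.3, 57.2, 37.2 and 31.5 CPM in untreated d10 tumors. It then stood at 77.9, 75.1 and 69.2 CPM in untreated d14 tumors, between the earlier groups and overlapping neither. Zbp1, which binds Z-form nucleic acids, had 668, 632 and 779 CPM at d6 and 249, 266, 340, 278 and 236 CPM at d10, the smallest change of the 5 at -1.32 ± 0.14 (adjusted p = 0.00042). Ifih1 (MDA5) and Ddx58 (RIG-I) fell by 1.71 and 1.77, and Dhx58 (LGP2), which tunes both, by 2.12.

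The 2-5A synthetases make the messenger that activates RNase L, and all 6 genes of the family fell. Oas1g had 82.3, 74.8 and 97.9 CPM at d6 and between 10.8 and 19.7 CPM in untreated d10 tumors, a log2 change of -2.38 ± 0.2 (adjusted p = 0.00016). Oas3 had 454, 396 and 526 CPM at d6 and 124, 117, 141, 218 and 183 CPM at d10. Its d10 values were split, replicates 4 and 5 being the highest, yet all were below the d6 tumors, with a change of -1.53 ± 0.2 (adjusted p = 0.0013).

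The IFIT family, whose products bind viral RNA, had the largest median change of the families with several members, -3.2. The 4 genes lie together on chromosome 19. Ifit3b had 89.4, 50.8 and 143 CPM at d6 and 3.63, 3.86, 9.99, 6.14 and 5.17 CPM in untreated d10 tumors. Ifit2 had 609, 380 and 920 CPM at d6 and 72.3, 64.7, 153, 68.9 and 62.9 CPM at d10. In both genes d6 replicate 2 was the lowest d6 tumor and untreated d10 replicate 3 stood apart above its group, but even the nearest pair was more than 2-fold apart. The changes were -4.02 ± 0.39 for Ifit3b and -2.89 ± 0.35 for Ifit2, the smallest of the family (adjusted p = 0.00034 and 0.00087).

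The 7 other antiviral effectors ranged widely, from -4.09 to -0.96 on the log2 scale. Mx2, a dynamin-like GTPase, had 150, 76.1 and 241 CPM at d6 and 5.05, 6.86, 18.6, 7.26 and 7.26 CPM in untreated d10 tumors, a change of -4.09 ± 0.47 (adjusted p = 0.00064). Bst2 had 439, 404 and 516 CPM at d6 and 199, 210, 172, 285 and 282 CPM at d10, so that the groups stay apart while the change, -0.96 ± 0.18 (adjusted p = 0.0062), is below 2-fold. Rsad2 and its chromosome 12 neighbour Cmpk2, a mitochondrial nucleotide kinase, fell by 3.68 and 3.01. Mx1 fell by 3.21 with the widest standard error of these 7, 0.51, and Isg20 (an exonuclease) and Samd9l by 1.18 and 1.61.

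Isg15, the conjugated modifier itself, had 398, 316 and 590 CPM at d6 and 51.4, 59.2, 73.9, 56.9 and 61.0 CPM in untreated d10 tumors. Its change of -2.82 ± 0.2 had the smallest adjusted p of the members in this comparison (6.8e-05). Herc6, the ligase that attaches it in mice, fell by 1.81, and the ubiquitin ligases Trim30a and Trim30d by 1.93 and 1.89. Changes were smaller for Dtx3l, a ubiquitin ligase that works with PARP9, which had 503, 414 and 500 CPM at d6 and 237, 229, 305, 240 and 233 CPM at d10 (-0.9 ± 0.13, adjusted p = 0.0018). The ADP-ribosyl transferases Parp12 and Parp14 fell by 1.21 and 0.9.

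Of the 11 other induced genes, Slfn8 had 0 counts in all 17 libraries and was not tested. Ifi44 changed the most of the remaining 10, from 683, 551 and 720 CPM at d6 to 101, 106, 174, 136 and 111 CPM in untreated d10 tumors (-2.35 ± 0.19, adjusted p = 0.00012). Epsti1 changed the least, from 49.6, 41.9 and 61.0 CPM to 26.2, 28.0, 31.8, 23.9 and 16.98 CPM (-0.98 ± 0.19, adjusted p = 0.008). From d10 to d14 in untreated tumors 7 of these 10 had a negative change, against 13 of all 43 members tested. The largest were those of Epsti1 and Ifi27l2a.

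**Figure D3:**
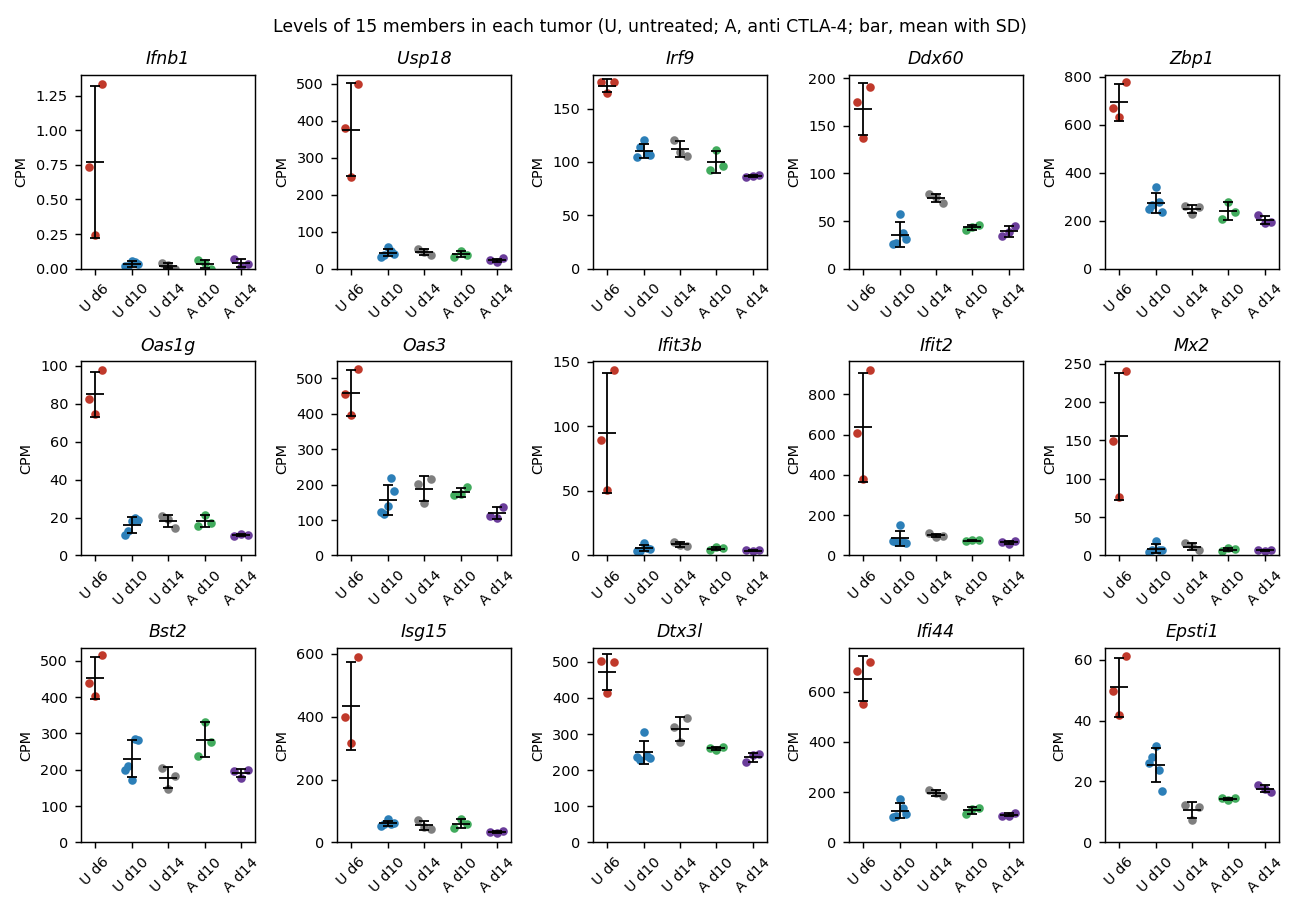
CPM of 15 members in each tumor (points) with the group mean and SD (bars), for Ifnb1 and the members with the largest and smallest change from d6 to d10 in each role. The d6 points lie above all others in every panel, Ddx60 and Ifi44 are higher in untreated d14 than in treated d14 tumors, and Epsti1 is lowest in untreated d14 tumors.

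The size of the fall was set beside the promoter sequences. Members with an ISRE in the window had a median log2 change of -1.89 (n = 17) and members without one -1.64 (n = 17), and the ranges, -4.02 to -0.94 and -4.42 to -0.61, largely coincide. Isg15, with 3 overlapping copies, and Rsad2, with 1, fell by 2.82 and 3.68 on the log2 scale, whereas Bst2, with 2, and Stat2, with 1, fell by 0.96 and 0.94.

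The receptor chains and the kinase JAK1 did not pass the test. From d6 to d10 Ifnar1 changed by 0.12 ± 0.09 (adjusted p = 0.41), Ifnar2 by 0.00 ± 0.1 (adjusted p = 0.99) and Jak1 by 0.15 ± 0.1 (adjusted p = 0.31). Of 46 listed genes of the pathway outside the members, 29 had enough counts to be tested, and their median change was -0.19. Of these, 2 were called lower (2.66% of all genes) and 0 higher (4.79%). By adjusted p alone 8 were lower (7.03%) and 1 higher (10.5%), and at an unadjusted p below 0.05 there were 10 and 2. The 2 called lower were Tlr3, the endosomal receptor for double-stranded RNA (-1.77 ± 0.19, adjusted p = 0.00048), and Eif2ak2, the kinase PKR (-1.23 ± 0.26, adjusted p = 0.012), and both are themselves known as interferon-induced.

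Genes listed for interferon gamma, the type II interferon, gave other counts. Of the 15, 0 were called lower (2.66% of all genes) and 3 higher (4.79%) from d6 to d10, with a median change of 0.04. By adjusted p alone 4 were lower (7.03%) and 5 higher (10.5%), with 7 lower and 5 higher at an unadjusted p below 0.05. The 3 called higher were Nos2 (1.12 ± 0.15), H2-Aa (1.23 ± 0.2) and H2-Ab1 (1.19 ± 0.19), H2-Aa and H2-Ab1 being class II antigen presentation genes. Ifng itself changed by -0.76 ± 0.3 (adjusted p = 0.11).

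Markers of other cells moved between d6 and d10 as well. Those of resident peritoneal macrophages (Timd4, Alox15, Cd5l, Icam2 and Gata6) summed to 381 to 534 CPM at d6, 62.4 to 140 CPM in untreated d10 tumors and 32.5 to 53.4 CPM in untreated d14 tumors. Those of macrophages and monocytes at large (Adgre1, Csf1r, Cd68, C1qa, Fcgr1 and Ly6c2) overlapped between d6 and d10. They summed to 842 to 941 CPM at d6, 841 to 1419 CPM in untreated d10 tumors and 363 to 656 CPM in untreated d14 tumors. Those of plasmacytoid dendritic cells (Siglech, Ccr9, Klk1 and Cox6a2), which are known as strong makers of type I interferon, summed to 14.8 to 15.9, 4.97 to 11.0 and 2.10 to 5.99 CPM. None of these markers was at 0 in any of these groups. T cell markers (Cd3d, Cd3e and Cd6) moved the other way, from 22.7 to 25.5 CPM at d6 to 78.6 to 105 CPM at d10, and the leukocyte marker Ptprc had 176 to 202 CPM at d6 and 163 to 249 CPM at d10. The part of these cells in the fall of the members was not tested.

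From d10 to d14 untreated tumors showed little further change in the members. Of 43 tested, 2 were called lower (3.45% of all genes tested) and 1 higher (3.78%), and the median log2 fold change was 0.18 against -0.04 over all genes. The 2 were Ifi27l2a, a small mitochondrial protein gene, with 18.1, 26.6, 21.2, 27.2 and 22.3 CPM at d10 and 13.8, 5.44 and 9.61 CPM at d14 (-1.27 ± 0.27, adjusted p = 0.015), and Epsti1, with 12.3, 7.49 and 11.7 CPM at d14 (-1.27 ± 0.22, adjusted p = 0.0082). In neither do the groups overlap. Groups did not overlap for 4 members in the lower direction (13.2% of all genes), Ifi35 and Phf11b among them, and for 4 in the higher (15.1%). At an unadjusted p below 0.05 edgeR gave 4 lower and 7 higher. The member called higher was Ddx60 (1.05 ± 0.24, adjusted p = 0.018).

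With the adjusted p alone the 2 members called lower, Ifi27l2a and Epsti1, were again the only lower ones (9.87% of all genes). By the same rule 4 were higher (9.80%), namely Ddx60, Oas2 (0.7 ± 0.21), Ifi44 (0.63 ± 0.18) and Parp14 (0.48 ± 0.14). This count rested on single tumors. It was 17 without untreated d10 replicate 3, the tumor with the highest members of its group, 0 without untreated d14 replicate 1 or 2, and 13 against untreated d10 replicates 4 and 5 alone. Against replicates 1 to 3 it was 4, with 2 members called lower and 1 higher. The share of all genes passing in such refits, here and in the comparisons below, was not computed. The call of Ddx60 was lost when untreated d14 replicate 1 (adjusted p = 0.061) or replicate 2 (adjusted p = 0.078) was left out, and its fold came below 2 without untreated d10 replicate 1 or 2. Ifi27l2a lost its call without untreated d14 replicate 2 (-0.99, adjusted p = 0.05).

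Advanced-phase tumors were low in the members relative to early-phase tumors. The d6 and d14 tumors lie in different library sets however many were made, so set and day cannot be told apart in this comparison. Between d6 and d14, 39 of 44 members were called lower (8.81% of all genes tested) and 0 higher (10.2%) by edgeR and by DESeq2, all 44 passed the adjusted p alone (26.0% of all genes) with 0 higher at an unadjusted p below 0.05, and the median change was -1.72, from -5.11 for Ifnb1 to -0.43 for Parp14. The members below 2-fold were Irf9, Stat2, Oas2, Dtx3l and Parp14. The largest changes after Ifnb1 were those of Mx2 (-3.72 ± 0.44) and Ifit3b (-3.46 ± 0.36), and the smallest adjusted p was that of Phf11d (-2.4 ± 0.12, adjusted p = 1.1e-05). Of the pathway genes outside the members, Tlr3, Tlr9, Irf5, Socs1 and Ptpn6 were called lower here.

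At d14 the members were lower in anti CTLA-4 treated than in untreated tumors, by small amounts. Of 43 tested, 1 was called lower (2.40% of all genes) and 0 higher (9.07% of all genes), while 30 passed the adjusted p alone as lower (14.8% of all genes) and 2 as higher (17.7%). The median log2 fold change was -0.54, a 1.46-fold lower level, beside 0.00 over all genes. For 33 members every treated tumor was below every untreated tumor (27.7% of all genes), and for 2 every treated tumor was above (24.2%). DESeq2 gave 1 called lower, 0 called higher and 32 lower by adjusted p alone, and at an unadjusted p below 0.05 edgeR gave 34 lower and 2 higher.

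The member called lower was Ifit3b, at 10.7, 7.94 and 6.96 CPM in untreated and 4.04, 3.20 and 4.19 CPM in treated d14 tumors (-1.13 ± 0.2, adjusted p = 0.0079). All 4 IFIT genes passed the adjusted p, with changes from -1.13 to -0.58. Usp18 changed by -0.93 ± 0.17 (adjusted p = 0.0085) and Cmpk2 by -0.92 ± 0.2 (adjusted p = 0.014). Of the 2-5A synthetases 5 of 6 passed, Oas1a (-0.45 ± 0.23, adjusted p = 0.16) being the exception, and of the sensors Ifih1, Ddx58 and Ddx60 did. Isg15 had 71.3, 47.9 and 42.1 CPM in untreated and 34.3, 28.3 and 35.8 CPM in treated d14 tumors, which do not overlap (-0.68 ± 0.2, adjusted p = 0.033). Ifnb1, with 3, 2 and 0 counts against 7, 1 and 3, was too low to test.

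The 2 members that rose under treatment at d14 were Slfn5 and Epsti1. Slfn5, a member of the Schlafen family, had 28.4, 24.7 and 32.1 CPM in untreated and 40.9, 46.5 and 40.7 CPM in treated d14 tumors (0.62 ± 0.11, adjusted p = 0.0082). Epsti1 had 12.3, 7.49 and 11.7 CPM and 18.9, 17.4 and 16.6 CPM (0.78 ± 0.19, adjusted p = 0.019). In both the treated tumors lay wholly above the untreated ones, and both are below 2-fold. Ifi27l2a had a change of 0.64 ± 0.3 with groups that overlap (adjusted p = 0.13).

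These counts moved with single tumors. The count called lower was 6 without untreated d14 replicate 3, 2 without treated replicate 3, and 0 without untreated replicate 1 or treated replicate 2. By adjusted p alone it was 19 without treated replicate 2 and 20 without treated replicate 1, but never above 31. Ifit3b came below 2-fold without untreated replicate 1 (-0.93, adjusted p = 0.028) or treated replicate 2 (-0.99, adjusted p = 0.037).

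Leukocyte markers differed between the same groups in the opposite direction to most members. Ptprc had 122 to 202 CPM in untreated and 272 to 316 CPM in treated d14 tumors, T cell markers 32.1 to 56.3 and 90.7 to 96.5 CPM, and markers of macrophages and monocytes (Adgre1, Csf1r, Cd68, C1qa, Fcgr1 and Ly6c2) 363 to 656 and 1021 to 1263 CPM. The mesothelioma and mesothelium markers had 2765 to 2833 and 1878 to 2096 CPM. Pancreas acinar markers (Cpa1, Cela1, Prss2 and Pnlip) reached 2.88 to 949 CPM in treated d14 tumors against at most 2.45 CPM in any other group, and with them Klk1, which the pancreas also expresses. None of the markers named was at 0 at d14. Their part in the difference of the members was not tested.

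Of the interferon gamma list, 3 of 15 were called higher in treated d14 tumors, namely Ifng (1.06 ± 0.25), Nos2 (1.15 ± 0.22) and H2-Ab1 (1.15 ± 0.27), and Ido1 was called lower (-1.02 ± 0.15). By adjusted p alone 6 were higher and 4 lower. Of all genes in this comparison 9.07% were called higher and 2.40% lower, and 17.7% and 14.8% passed the adjusted p alone. Of the 29 tested pathway genes outside the members 0 were called, 8 passed the adjusted p alone as higher and 2 as lower, and at an unadjusted p below 0.05 there were 14 and 2. The 2 lower ones were Tlr3 (-0.71 ± 0.09) and Eif2ak2 (-0.36 ± 0.08). Their DESeq2 counts were not computed.

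At d10 no member passed the test of anti CTLA-4 against no treatment. By edgeR's quasi-likelihood test 0 of 43 were called in either direction (0.00% of all genes lower and 0.0174% higher), DESeq2 also called 0, and at an unadjusted p below 0.05 there was 1 lower and 0 higher. That gene was Epsti1, with 26.2, 28.0, 31.8, 23.9 and 16.98 CPM in untreated and 14.4, 13.8 and 14.6 CPM in treated tumors (-0.83 ± 0.18, adjusted p = 0.18), the only member whose groups did not overlap (4.59% of all genes). The median change of the members was -0.13, between -0.83 and 0.3. The treated d10 tumors share a library set with untreated d10 replicates 4 and 5 and not with replicates 1 to 3, and against either part 0 members were called.

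Whether the treatment effect differed between d10 and d14 was tested as an interaction, the effect at d14 minus that at d10. It passed both thresholds for Ddx60, which was more negative at d14 (-1.18 ± 0.31, adjusted p = 0.02, against 2.15% of all genes called in that direction), and for Epsti1, which was more positive (1.6 ± 0.28, adjusted p = 0.004, against 9.67%). By adjusted p alone 6 members were more negative at d14 (5.85% of all genes) and 1 more positive (11.9%). The 6 were Ddx60, Oas2 (-0.88 ± 0.27), Ifi44 (-0.82 ± 0.23), Parp12 (-0.66 ± 0.18), Xaf1 (-0.63 ± 0.15) and Rtp4 (-0.5 ± 0.14). The interaction was below 0 in 39 of the 43 members, with a median of -0.5. Ddx60 lost its call without treated d14 replicate 1 (adjusted p = 0.059). At d10 Epsti1 had 26.2, 28.0 and 31.8 CPM in untreated replicates 1 to 3. It had 23.9 and 16.98 CPM in untreated replicates 4 and 5, which share a library set with the treated d10 tumors (13.8 to 14.6 CPM). The part of the library set in the interaction was not tested.

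**Figure D4:**
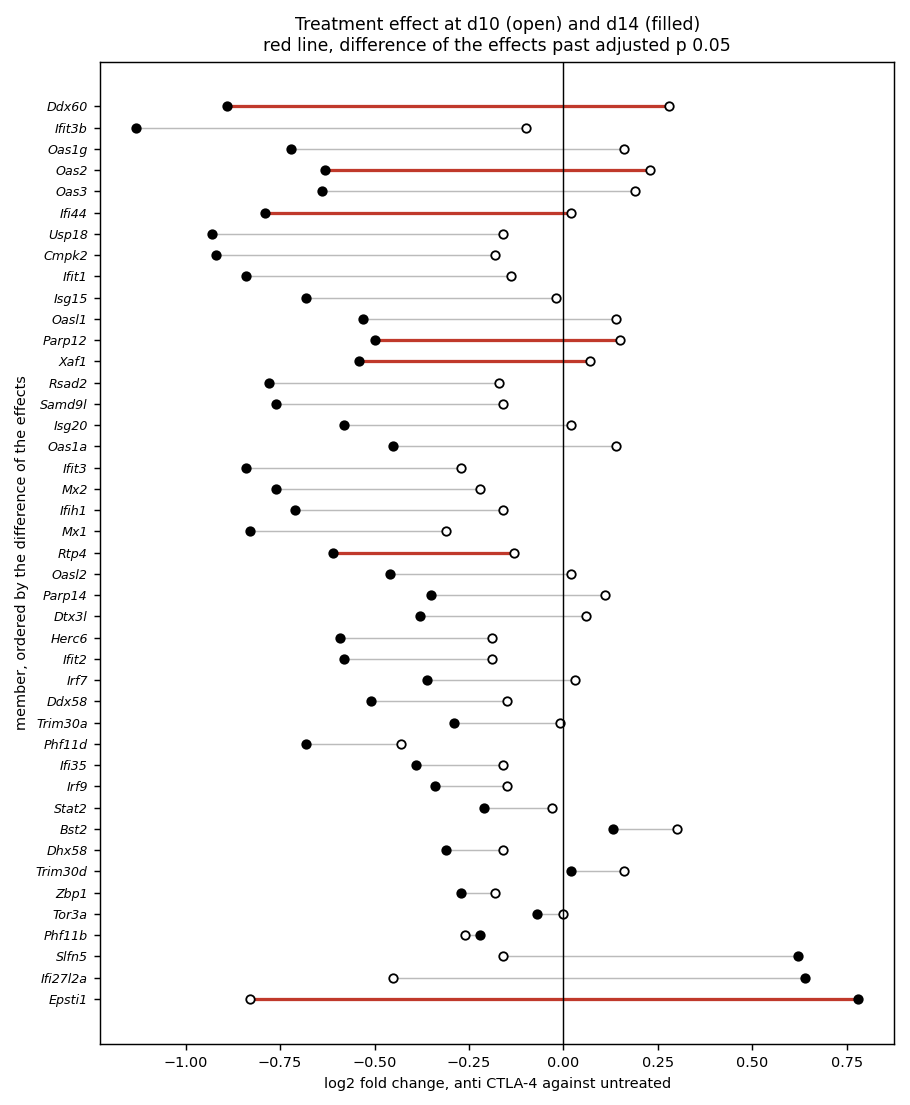
Log2 fold change of anti CTLA-4 against untreated tumors for 43 members at d10 (open points) and d14 (filled points), ordered by their difference. Most filled points lie left of their open points, red lines mark the 7 members whose difference passed the adjusted p, and Epsti1 at the foot crosses from -0.83 to 0.78.

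Within the treated mice the members were also lower at d14 than at d10, although none by more than 2-fold. Of 43 tested 0 were called in either direction (2.48% of all genes lower and 9.00% higher) by edgeR or by DESeq2, 19 passed the adjusted p alone as lower (23.3% of all genes) and 2 as higher (23.3%), and at an unadjusted p below 0.05 there were 25 and 3. The median change was -0.31. Oas1a (-0.85 ± 0.09, adjusted p = 0.00048) and Isg15 (-0.85 ± 0.17, adjusted p = 0.0035) changed the most, and Usp18 by -0.71 ± 0.16. None of the 4 IFIT genes passed, with changes from -0.49 to -0.17. The 2 that rose were again Slfn5 (0.73 ± 0.1, adjusted p = 0.00092) and Epsti1 (0.32 ± 0.08, adjusted p = 0.013). With 3 or 4 library sets the 2 groups belong to different sets, so that set and day cannot be told apart here. With 2 sets they share 1.

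Set against untreated d10 tumors, treated d14 tumors had 0 of 43 members called (2.49% of all genes lower and 5.34% higher) by edgeR or DESeq2, 18 lower by the adjusted p alone (15.3% of all genes) and 0 higher (12.4%). At an unadjusted p below 0.05 there were 23 and 2. The median was -0.45 and the largest changes were those of Isg15 (-0.93 ± 0.14, adjusted p = 0.003) and Usp18 (-0.93 ± 0.2, adjusted p = 0.0092). The count of 18 was 3 without treated d14 replicate 2, 8 without replicate 3 and 9 without replicate 1, and 28 against untreated d10 replicates 4 and 5 alone and 20 against replicates 1 to 3. The comparisons of treated d14 tumors share those 3 libraries, so their values for the same member are not independent.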

How the data were processed

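RNA-Seq libraries were made with the KAPA RNA HyperPrep kit from 17 AB12 tumors. The authors aligned reads with TopHat2 2.0.14 to GRCm38 (mm10), kept uniquely mapped reads with Sambamba 0.6.5, and deposited raw counts per Gencode vM21 gene from HTSeq, whose version was not given in the sources used here. Groups and replicates were taken from the labels. From the counts, edgeR 4.0.16 (R 4.3.3) was used for each pair of groups with filterByExpr, TMM factors and the quasi-likelihood test, two-sided, with Benjamini-Hochberg adjustment over all genes tested. The interaction was fitted on the d10 and d14 groups. A gene was called at an adjusted p below 0.05 and a fold above 2. Standard errors were derived from the F statistic. The code was tested on simulated counts. The members and lists were chosen with earlier results of these data known. Values in every tumor were given for Ifnb1 and for the members with the largest and smallest change from d6 to d10 in each role; full statistics were given for members called in another comparison. Other named members were chosen after their values were seen. Alternatives were DESeq2 1.42.0, no TMM, no filter, protein coding genes, all groups in one fit, a replicate block, subsets of d10 tumors and each tumor left out. Counts by adjusted p alone were added after seeing the data. Depth, at 46371577 to 96759833 counts per tumor, limits low genes such as Ifnb1, whose intervals cover counting error only. Nothing was tested for genes failing the filter. One gene of the pathway list is not reported here.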

Additional observations from a re-analysis of the deposited data

Results flagged for a closer look

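In the 5 untreated d10 tumors, 13 of the 43 members examined had 1 tumor whose gap to its nearest neighbour took up more than 0.71 of the range of the group, Dixon's critical value for 5 samples, which chance alone passes in a small share of groups. In 11 of the 13 the tumor was replicate 3, as the highest, with ratios of 0.896 for Ifit2, 0.888 for Phf11d, 0.857 for Dtx3l, 0.853 for Mx1, 0.851 for Parp14, 0.837 for Mx2, 0.829 for Samd9l, 0.796 for Ifit1, 0.774 for Rsad2, 0.772 for Ifih1 and 0.737 for Ifit3. The other two were Ifi35, highest in replicate 4 (0.769), and Slfn5, lowest in replicate 5 (0.776). The members are not independent of each other within a tumor.

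The effect of anti CTLA-4 differed between d14 and d10 by the adjusted p of the interaction test for 6 members in the negative direction (5.85% of all genes) and 1 in the positive direction (11.9%), and the 7 together are no larger a share than the genes of both directions together. On the log2 scale the difference, d14 minus d10, was -1.18 for Ddx60, -0.88 for Oas2, -0.82 for Ifi44, -0.66 for Parp12, -0.63 for Xaf1, -0.5 for Rtp4 and 1.6 for Epsti1.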

How the results depend on the processing

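No log2 fold change followed under the alternatives changed sign. Those followed were of the named members against d6 and of members called in a comparison, so comparisons without a called member had none. The counts called lower from d6 to d10 and from d6 to d14 held within 1.5 times under every alternative, at 38 to 42 and 37 to 39 when 1 tumor was left out. The small counts moved, and the share of all genes passing under each alternative was not computed. Same-numbered tumors did not deviate together (correlations from -0.265 to 0.118), so the numbers were not taken as pairs. With the replicate block 1 member was called lower from d10 to d14, 1 lower under treatment at d10 and 5 in the interaction, and the block moved no other count by over 1.5 times.

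Against untreated d10 replicates 4 and 5 alone, d14 untreated tumors had 1 member called lower, 2 called higher and 13 higher by adjusted p alone, and treated d14 tumors had 1 called lower and 28 lower by adjusted p alone. Against replicates 1 to 3 treated d14 tumors had 1 called lower. Without the fold threshold, chosen after seeing the data, the counts were 4 higher from d10 to d14, 30 lower and 2 higher under treatment at d14, 18 lower in treated d14 against untreated d10 tumors, 19 lower and 2 higher from d10 to d14 under treatment, and 7 in the interaction. By adjusted p alone, all 5 groups in one fit gave 1 higher under treatment at d14 and 12 lower from d10 to d14 under treatment. Without TMM the latter was also 12, and treated d14 against untreated d10 tumors gave 10. DESeq2 called 3 members in the interaction, where edgeR called 2.

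With 1 tumor left out, called counts from d10 to d14 were 1 to 2 lower and 0 to 2 higher, and 0 to 17 higher by adjusted p alone. Under treatment at d14 they were 0 to 6 lower and 0 to 1 higher, and 19 to 31 lower and 1 to 3 higher by adjusted p alone. Treated d14 against untreated d10 tumors gave 0 to 1 called lower and 3 to 20 by adjusted p alone. From d10 to d14 under treatment 0 to 1 were called lower, with 13 to 28 by adjusted p alone (13 without treated d10 replicate 3, 28 without replicate 1). The interaction gave 1 to 4. Groups of 3 tumors limit every comparison. Days differ in library set except between d6 and untreated d10 replicates 1 to 3.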
